A study of Macaca mulatta with 304 samples.

Results

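Of the 28 rhesus macaques (Macaca mulatta) of the series, 6 had a blood sample on Day 270 after irradiation of the whole thorax, and these long-term followed animals were examined here. The counts of Day 240 and Day 270 were summed in each animal (later window) and set against the summed counts of Day 150 and Day 180 of the same animal (earlier window). This used 24 libraries, 4 from each animal, of the 96 that these 6 animals gave in all. B1003 and B1004 were males and B1502, B1503 and B1505 were females, all given 9.8 Gy, and B2502 was a female given 10.7 Gy. The comparison asked whether the blood transcriptome of animals alive at the end of follow-up still differed between these windows. The animals were adults of the Chinese sub-strain, 3 to 5 years old at the start. Per the study's methods all received tramadol or buprenorphine in the first weeks, and any animal with fast breathing received intramuscular dexamethasone, a synthetic glucocorticoid. The labels do not give which of these animals received dexamethasone, or when. Since B2502 was the 1 animal at the higher dose, its values and the dose cannot be told apart. No library from an unirradiated animal of the same age entered the comparison, so time since irradiation and age cannot be told apart either.

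Whole blood RNA comes from circulating leukocytes, platelets and young red cells, which still carry RNA for hemoglobin chains and heme synthesis. Glucocorticoids bind a nuclear receptor that switches on genes such as FKBP5, ZBTB16 and TSC22D3, release neutrophils from the marrow and vessel walls into the circulation, and lower the numbers of circulating lymphocytes and eosinophils. Irradiation of the thorax can lead to pneumonitis weeks to months later, and B cells are among the most radiosensitive blood cells.

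The 24 libraries held between 2840219 and 10371810 counts on genes. The medians were 6694475.5 in the earlier and 7004021 in the later window. Depth per animal did not differ between windows beyond the spread (exact paired permutation test, two-sided, p = 0.344, n = 6). The Day 150 library of B1502 stood apart, with the lowest count and 11695 genes detected, against 14702 or more in the others. Of 18 markers of cells other than blood, KRT1 and EPCAM were at 0 in all 24 libraries, KRT5 had 2 counts in total, SFTPC 1 and ALB 5. CPM is the unit that edgeR gives for a count scaled by the depth of its library. For the sum of these 18 markers the depth was the plain total of counts, and elsewhere it was also scaled by the upper quartile. The summed level was 258.5 to 463.2 CPM in earlier and 130 to 486.7 CPM in later libraries, mainly from PECAM1, AGER and DES. PECAM1 is also made by platelets and leukocytes, so this sum does not measure cells from outside the blood. Markers of leukocytes, T cells, B cells, monocytes, neutrophils, platelets and red cells were counted in every library. The labels carry a library number, which was 0 in 21 of the 24 libraries and another number in the Day 240 and Day 270 libraries of B1003 and the Day 240 library of B1505. What this number stands for is not given in the sources used here. In B1003 both later libraries and neither earlier one had a number other than 0. Window and library number therefore cannot be told apart in any change of B1003.

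No gene passed the test between the windows over the 6 animals. A quasi-likelihood fit in edgeR that kept the 6 animals as blocks called 0 of 13751 genes tested (0.0%), where a call needed both a Benjamini-Hochberg adjusted p no larger than 0.05 and a difference of 1.5-fold or more. At an unadjusted p under 0.05 there were 695 genes (5.05%), of which 446 (3.24%) were higher and 249 (1.81%) lower in the later window. DESeq2 called 17 genes, 14 higher and 3 lower. The smallest adjusted p of edgeR was 0.742. There were 245 genes (1.78%) higher in all 6 animals and 258 (1.88%) lower in all 6. Within single animals the differences were larger, but they did not go the same way. The difference exceeded 2-fold in 25.9% of genes in B2502 and 17.98% in B1503, and in 3.25% to 7.26% in the other 4 animals. Across the 13751 genes the changes of B1503 and B2502 had a Pearson r of 0.73. B1004 had an r of -0.41 with B1503 and -0.47 with B2502, whereas B1003 and B1004 had 0.43. These are descriptions across genes, which are not independent replicates, with 1 value per gene and animal.

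Among genes with 1 direction in all 6 animals, the 5 higher ones with the smallest p were HBM, BLVRB, RAB3IL1, NOSIP and NDUFA1. HBM encodes hemoglobin subunit mu of the alpha globin cluster (chr20:184496-185279 in Mmul_10). Its level averaged 53.3 ± 27.5 CPM (SD, n = 6 animals) in the earlier and 166 ± 106.5 CPM in the later window, a log2 fold change of 1.59 ± 0.23 (SE, edgeR adjusted p = 0.742). In B1003 HBM was at 9.74 and 24.8 CPM on Days 150 and 180 and at 149 and 61.6 CPM on Days 240 and 270. In B1004 the same days gave 61.5, 51.3, 110 and 44.5 CPM, and in B1502 16.2, 35.9, 45.4 and 103.1 CPM. B1503 had 93.6, 86.98, 151 and 446.5 CPM. B1505 had 47.4, 63.9, 233.1 and 108.8 CPM, and B2502 had 84.8, 93.5, 379 and 222 CPM. Both later draws lay above both earlier draws in 5 animals, and in B1004 the draws overlapped. Over all genes tested, both later draws lay above both earlier ones in 13.7% to 32.3% of genes in single animals and below them in 9.17% to 42.6%. Before irradiation the 6 animals had 31.2 to 80.5 CPM (median 47.05).

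BLVRB encodes biliverdin reductase B, an enzyme abundant in red cells. It had 42.7 ± 18.6 CPM in the earlier and 122.3 ± 88.9 CPM in the later window (SD, n = 6; log2 fold change 1.35 ± 0.24 SE, edgeR adjusted p = 0.848). Its 12 earlier draws ran from 12.3 to 82.6 CPM (median 43.4) and its 12 later draws from 27.1 to 373 CPM (median 102.99). RAB3IL1, an exchange factor for Rab GTPases, was higher by 1.54 ± 0.28 on the log2 scale. NDUFA1, a subunit of mitochondrial complex I, was higher by 0.87 ± 0.18 and NOSIP, which binds nitric oxide synthase, by 0.63 ± 0.13. NDUFA1 ran from 0.50 in B2502 to 1.08 in B1502, at a low level of 5.80 CPM on average earlier and 10.1 CPM later. Its draws overlapped in B1004. By DESeq2 the adjusted p was 8.41e-06 for HBM, 0.00185 for BLVRB, 0.00256 for RAB3IL1, 0.000362 for NDUFA1 and 0.0442 for NOSIP. FOSB, CSRP1, NAA20 and SLC16A6 were among the 5 lower genes with the smallest p. FOSB, a component of the AP-1 transcription factor, had a log2 fold change of -0.80 ± 0.14 (edgeR adjusted p = 0.848, DESeq2 adjusted p = 4.9e-05). Its 12 earlier draws ran from 13.9 to 154 CPM (median 36.2) and the later ones from 10.5 to 56.4 CPM (median 25.0), so the draws overlapped. The FOSB difference rested mainly on Day 180: Days 240 and 270 gave -0.08 and -0.36 against Day 150 and -0.92 and -1.19 against Day 180. Before irradiation FOSB was between 9.44 and 14.1 CPM. The log2 fold changes of CSRP1, NAA20 and SLC16A6 ran from -0.78 to -0.60.

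**Figure D1:**
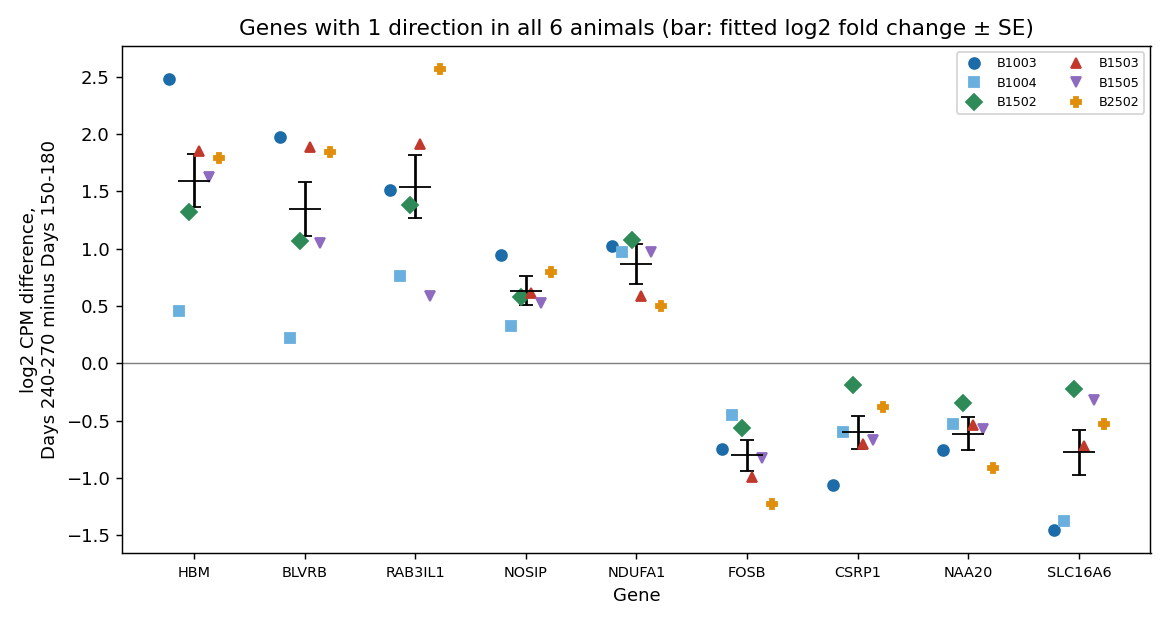
Difference in log2 CPM between the later and the earlier window for 9 of the 10 genes with the smallest p (5 higher, 5 lower) among those with 1 direction in all 6 animals (points: animals; bar: fitted log2 fold change with its SE). HBM ran from 0.46 in B1004 to 2.48 in B1003, and no gene passed the adjusted threshold by edgeR.

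Genes of red cells had the largest median difference of the 37 lists. The list of red cell precursors (erythroid) had 28 of 32 members tested, and 0 were called by edgeR in either direction. The median log2 fold change was 0.96, against -0.03 over all genes tested, and 20 members were higher at an unadjusted p under 0.05. Of all genes tested, 3.24% were higher at that level. The median change was 2.62 in B2502, 1.82 in B1503, 0.94 in B1003, 0.86 in B1502 and 0.32 in B1505, and -0.78 in B1004. KLF1, a transcription factor of red cell precursors, was higher by 1.22 ± 0.33 (SE) and higher in 5 of 6 animals, with 2.57 to 120 CPM (median 56.05) in the earlier and 7.56 to 487 CPM (median 128.3) in the later draws. AHSP, a chaperone of alpha globin, had a log2 fold change of 0.95 ± 0.24. SLC4A1, the anion exchanger of the red cell membrane, had 1.23 ± 0.44. ALAS2, the enzyme that starts heme synthesis in red cells, was at 7887 and 6711 CPM on Days 150 and 180 in B2502 and at 31625 and 58196 CPM on Days 240 and 270. In B1503 the same days gave 7848, 7459, 18043 and 33605 CPM, and in B1004 they gave 9848, 7604, 5457 and 3393 CPM. B1004 thus had lower ALAS2 in both later draws, as had 21.9% of all genes tested in that animal. In 5 of 6 animals the ALAS2 window value was higher. The fitted ALAS2 log2 fold change was 0.96 ± 0.45. In bulk RNA a larger number of young red cells and more RNA in each cannot be told apart. The list's median was 0.66 without B2502 and 1.32 without B1004.

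Members of the red cell list were looked at for the letters AGATAA on either strand, a core form of the site of GATA factors, in the 250 bases before each annotated gene start in Mmul_10. Of 28 members 6 (21.4%) held it, against 6.86% of all 13651 tested genes with such a window. The share was also above that of all genes in the B cell list (4 of 23, 17.4%) and the interferon list (5 of 37, 13.5%). AHSP and BLVRB are printed because they carry the letters and are the red cell list's member with the smallest p and the second of the genes higher in all 6 animals. BLVRB was not on the red cell list. The capitals mark AGATAA or its reverse complement, and both windows are written 5′ to 3′ on the strand of the gene from the RefSeq assembly Mmul_10.

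AHSP (chr20:28978662-28978911, plus strand): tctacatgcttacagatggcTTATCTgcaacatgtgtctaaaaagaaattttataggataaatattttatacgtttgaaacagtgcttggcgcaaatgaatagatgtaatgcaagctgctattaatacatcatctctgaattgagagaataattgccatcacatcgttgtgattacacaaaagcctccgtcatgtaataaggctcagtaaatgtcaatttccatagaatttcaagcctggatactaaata

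BLVRB (chr19:39683159-39683408, minus strand): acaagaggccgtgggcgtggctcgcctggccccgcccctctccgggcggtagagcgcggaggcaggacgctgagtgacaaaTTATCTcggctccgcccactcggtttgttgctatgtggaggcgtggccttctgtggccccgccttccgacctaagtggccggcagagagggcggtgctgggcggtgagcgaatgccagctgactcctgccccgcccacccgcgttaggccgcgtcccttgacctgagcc

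In AHSP the letters start 230 bases and in BLVRB 169 bases before the annotated start. The window of HBM held no AGATAA. A match of letters is a description and was not measured as binding.

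HBB levels differed with the library number. HBB encodes the beta chain of hemoglobin and had a log2 fold change of 2.17 ± 0.92 (SE, unadjusted p = 0.041, edgeR adjusted p = 0.978). HBB was at 11.2 and 8.56 CPM on Days 150 and 180 and at 973 and 416 CPM on Days 240 and 270 in B1003. In B1505 the values were 17.98, 13.6, 487 and 649 CPM. The other 4 animals stayed between 3.64 and 70.6 CPM in all 16 draws. Over the 96 libraries of these animals, HBB had a median of 19.0 CPM in the 48 libraries numbered 0, 350 CPM in the 35 with a number above 0 and below 150 and 457 CPM in the 13 with a number above 150. The 35 with a number above 0 and below 150 were all control draws or draws of the first weeks after irradiation. Nearly all of those numbered 0 were later draws, so day and number cannot be told apart between them. Most of the 13 with a number above 150 came from B1003 and B1505, so animal and number cannot be told apart there. The Day 270 library of B1505 was numbered 0 and had 649 CPM. HBM differed less, with medians of 65.2, 102 and 64.4 CPM in these 3 sets. With only libraries numbered 0, which leaves out B1003, HBB gave 1.47, HBM 1.27, BLVRB 1.13 and the red cell list 0.96. The part of the library number in HBB was not tested. Globin genes have near-identical copies, and reads could be split between them.

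**Figure D2:**
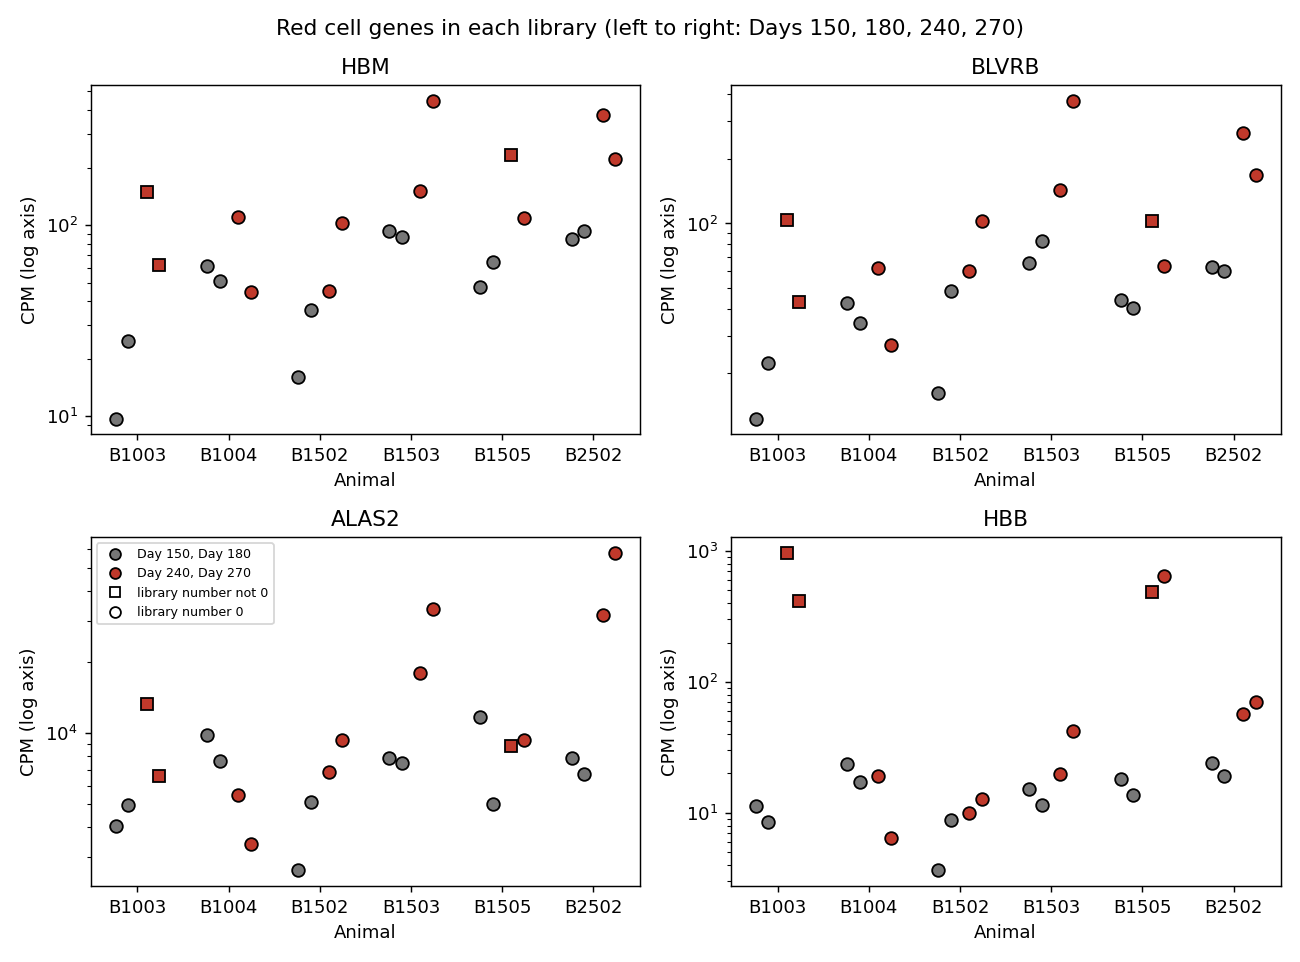
CPM (log axis) of 4 red cell genes in each of the 24 libraries, by animal (grey: Days 150 and 180; red: Days 240 and 270; squares: library number not 0; circles: library number 0). HBB was at 416 CPM or more only in the 4 later libraries of B1003 and B1505, whereas ALAS2 was highest in the later libraries of B2502 and B1503.

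Cell type lists went opposite ways in different animals. In B1503 and B2502 the medians of the B cell and T cell lists were lower and those of both neutrophil lists higher in the later window, and B1003, B1004 and B1502 had the opposite sign in the B cell, T cell and mature neutrophil lists. For B cells (23 of 25 members tested, 0 called) the median change was -1.80 in B1503 and -1.53 in B2502, and 1.49 in B1004, 0.58 in B1003, 0.32 in B1502 and -0.15 in B1505. The fitted median over all animals was -0.09. For T cells (18 of 20 tested, 0 called) it was -1.24 in B2502 and -0.78 in B1503, and 0.19 to 0.43 in the other 4 animals. The cytotoxic lymphocyte list (23 tested, 0 called) did not follow this split, with -0.59 in B2502, 0.19 in B1503 and 0.07 to 0.49 in the others. Cytosolic ribosomal proteins (71 tested, 0 called) were at -0.68 in B1503 and -0.63 in B2502 and at 0.34 to 0.72 in the others. Genes of mature neutrophils (16 tested, 0 called) were at 0.90 in B2502 and 0.75 in B1503 and at -0.82 to -0.25 in the others. The neutrophil granule list (13 tested, 0 called) was at 1.17 in B1503, 1.11 in B2502 and -1.05 in B1502. The B1502 values lean on its Day 150 library. Without that library the B1502 median was -0.11 for neutrophil granules, -0.20 for mature neutrophils, 0.19 for B cells and 0.69 for red cells. It was then 0.09 for T cells and 0.13 for ribosomal proteins.

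**Figure D3:**
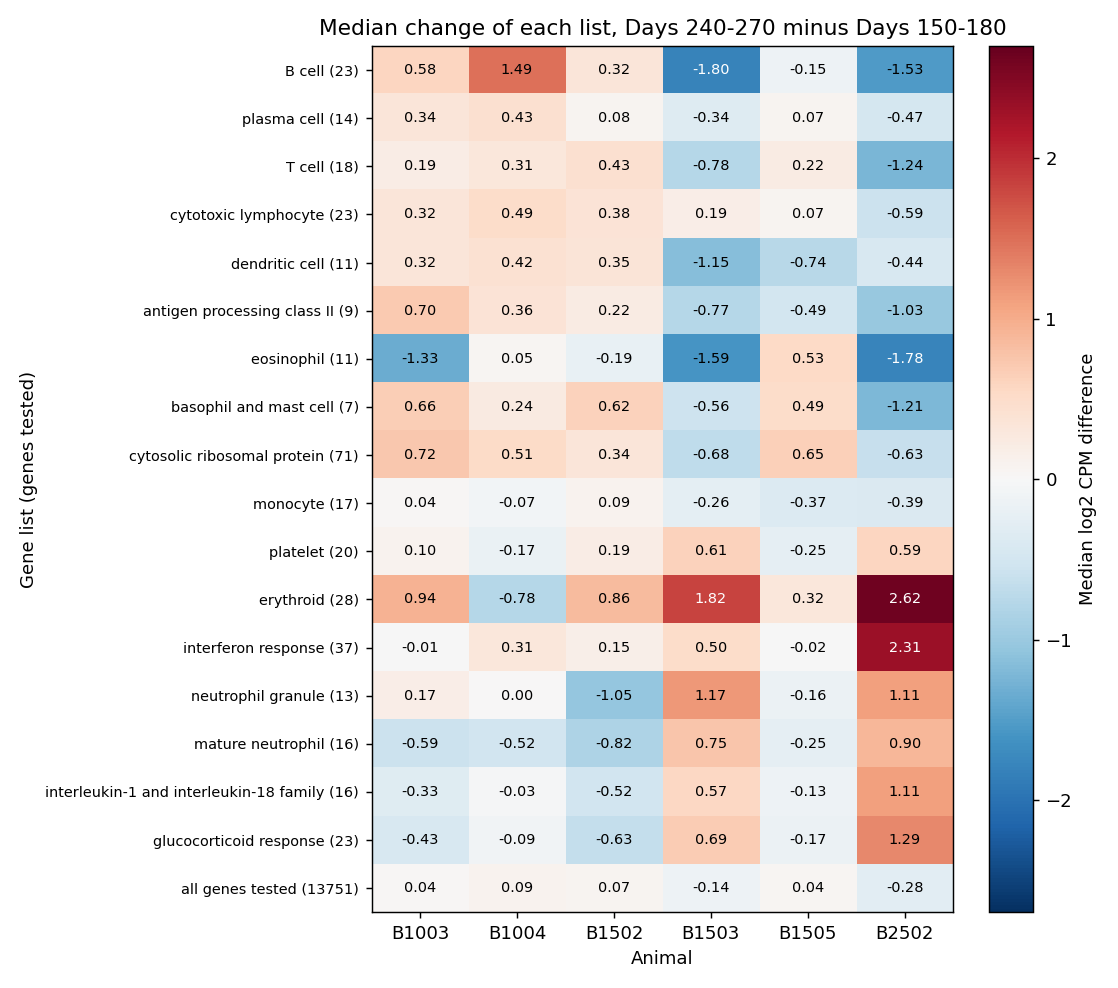
Median log2 CPM difference between the later and the earlier window for 17 of the 37 gene lists and for all genes tested, by animal (rows: lists with the number of genes tested; color: red higher, blue lower). B1503 and B2502 share negative values for B cells, T cells and ribosomal proteins and positive values for neutrophil, red cell and glucocorticoid lists.

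MS4A1, which encodes the B cell antigen CD20, shows the split in single draws. In B1503 it was at 59.1 and 59.7 CPM on Days 150 and 180 and at 25.5 and 8.02 CPM on Days 240 and 270. In B2502 it was at 69.5, 112.9, 24.5 and 27.3 CPM. In B1004 it was at 38.6, 26.7, 59.2 and 143 CPM. Thus MS4A1 was lower in both later draws in B1503 and B2502 and higher in both in B1004. This was common in these animals. Of the 13751 genes tested, 3988 in B1503 and 5858 (42.6%) in B2502 had both later draws below both earlier ones. In B1004 4444 genes (32.3%) had both later draws above both earlier ones. B1003 had 136.2, 42.2, 59.3 and 185 CPM, so that its draws overlapped. Of the 24 draws 21 lay below the lowest control value of the 6 animals, 127 CPM, and the exceptions were Days 150 and 270 in B1003 and Day 270 in B1004. All 6 control libraries of these animals had a library number other than 0, so time and this number cannot be told apart in most comparisons with control. CD79B, a chain of the B cell receptor complex, was at 32.6, 39.2, 13.3 and 6.45 CPM in B1503, at 68.01, 60.2, 17.04 and 7.42 CPM in B2502 and at 17.1, 7.47, 41.8 and 71.6 CPM in B1004. Before irradiation CD79B was at 153 CPM or more in these 3 animals. CD3E, a chain of the T cell receptor complex, was at 248 and 253 CPM in B2502 in the earlier and at 131.7 and 79.97 CPM in the later draws. B1503 had 179, 276, 148 and 91.5 CPM of CD3E. The other 4 animals had 123.2 to 398 CPM earlier and 255 to 467 CPM later. A smaller number of lymphocytes and less RNA per lymphocyte cannot be told apart.

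**Figure D4:**
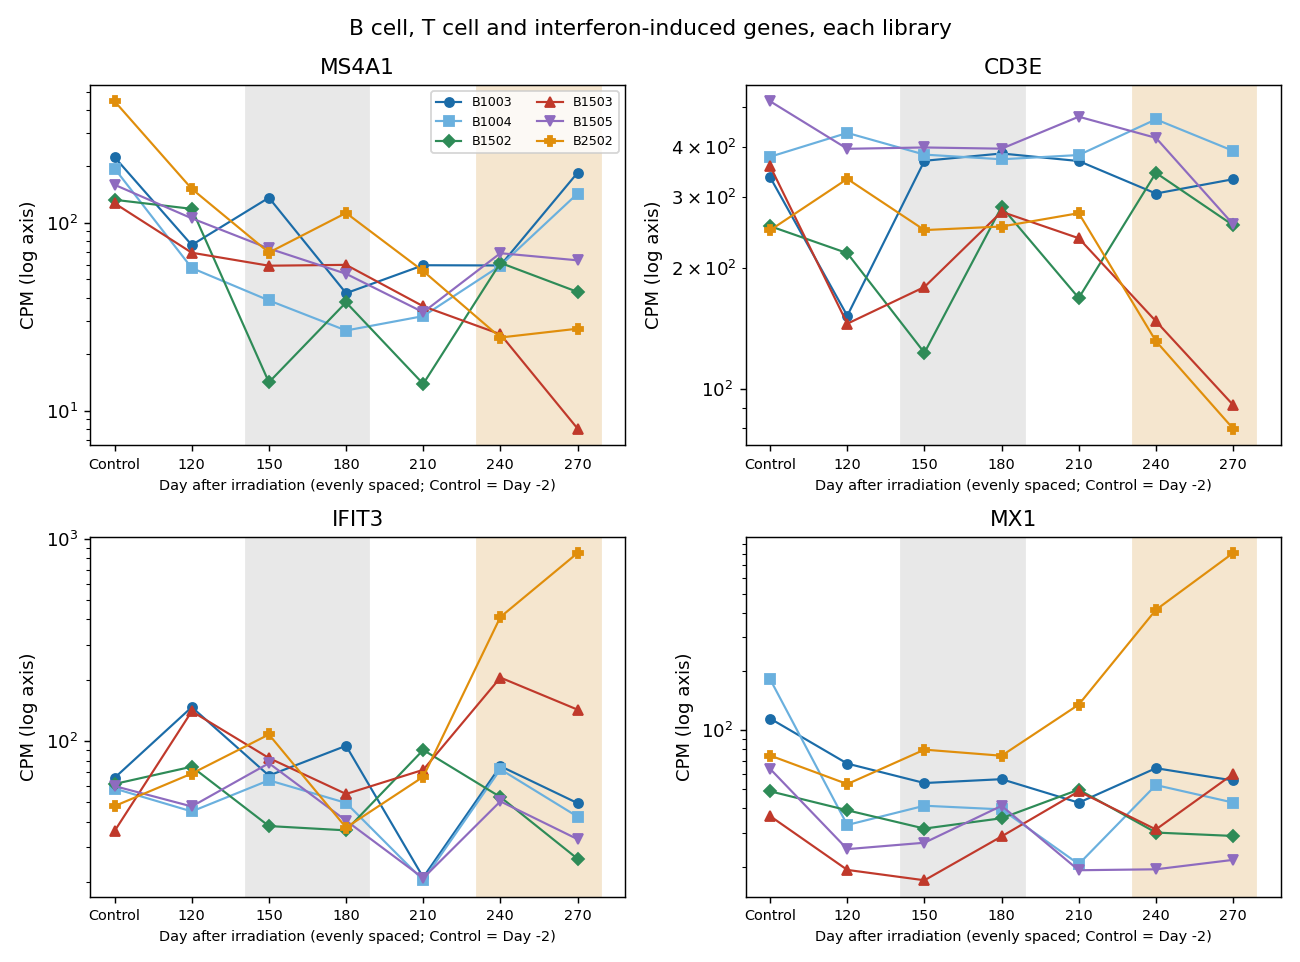
CPM (log axis) of MS4A1, CD3E, IFIT3 and MX1 before irradiation and on Days 120 to 270 in the 6 animals (lines: animals; grey band: earlier window; tan band: later window). CD3E was lowest on Day 270 in B2502 and B1503, and MX1 reached 806 CPM on Day 270 in B2502.

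Glucocorticoid-induced genes and interleukin-1 receptor genes were high in the same later draws of B1503 and B2502. FKBP5, a co-chaperone of the glucocorticoid receptor, was at 380 and 149 CPM on Days 150 and 180 and at 1340.7 and 1579.5 CPM on Days 240 and 270 in B1503. In B2502 FKBP5 was at 163 and 184 CPM and then at 1360.8 and 1806.9 CPM. The later draws of the other 4 animals lay between 123.6 and 236.4 CPM. In the earlier window FKBP5 was at 1084.5 CPM on Day 150 in B1502, and outside both windows at 2083.3 CPM in B1003 and 1955.8 CPM in B1503 on Day 120. Before irradiation it was between 141 and 244 CPM in all 6 animals. ZBTB16, a zinc finger factor that glucocorticoids induce, had 365 and 567 CPM in the later draws of B1503, 337 and 371 CPM in those of B2502 and at most 21.3 CPM in those of the other 4. On Day 150 B1502 had 323 CPM of ZBTB16. TSC22D3, which encodes the glucocorticoid-induced leucine zipper, had 5261.5 and 4334.3 CPM in the later draws of B1503 and 4648.9 and 3897.8 CPM in those of B2502, against 583 to 1363.7 CPM in the other animals. FKBP5, ZBTB16 and TSC22D3 were named after their values were seen, as were IL1R2, EPX, MT2A, HBB, ALAS2, KLF1, MS4A1, CD3E, IFIT3, MX1, SLC4A1, IFI6 and IL5RA. The glucocorticoid list had 23 of 24 members tested and 0 called. Its fitted median was 0.15, and by animal 1.29 in B2502, 0.69 in B1503 and -0.63 to -0.09 in the others. The -0.63 was that of B1502, and without its Day 150 library B1502 had -0.32. Of the members of the glucocorticoid list the smallest p was for SAP30, a subunit of a histone deacetylase complex, with -0.65 ± 0.18 and lower in 6 of 6 animals.

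IL1R2 encodes the decoy receptor of interleukin-1 and IL1RL1 the receptor of interleukin-33. IL1RL1 was at 329 and 409 CPM in the later draws of B1503 and at 325 and 372 CPM in those of B2502, against 4.74 to 18.8 CPM in the other 4. In the earlier window IL1RL1 was at 348 CPM on Day 150 in B1502, 110 CPM on Day 150 in B1003 and 88.5 CPM on Day 150 in B1503, and at most 21.4 CPM in the other 9 draws. Its fitted log2 fold change was 0.33 ± 1.27 (SE, edgeR adjusted p = 0.999), with 5.49 in B2502, 3.16 in B1503, -3.58 in B1502 and -2.71 in B1003. It was -0.50 without B1503 and -0.62 without B2502. IL1R2 was at 1396.8 and 2152.3 CPM in the later draws of B1503, at 1193.1 and 840 CPM in those of B2502 and at 9.66 to 109.4 CPM in those of the others. MMP8, a collagenase of neutrophil granules, was at 270 and 537 CPM in the later draws of B1503, 67.1 and 67.8 CPM in those of B2502 and at most 6.72 CPM in those of the others. In the earlier window MMP8 was at 117.4 CPM on Day 150 in B1503, above both later draws of B2502, and at 54.5 CPM on Day 150 in B1502. On the same day IL1R2 was at 377 CPM in B1503 and 982.7 CPM in B1502. CLEC4D, a C-type lectin receptor of myeloid cells, was at 74.9 and 100 CPM in B1503 and 40.7 and 55.8 CPM in B2502, and at most 6.09 CPM in the other later draws. Of the 42 libraries of Control and Days 120 to 270, the 7 with FKBP5 above 1000 CPM were also the 7 highest for ZBTB16, IL1R2, IL1RL1 and CLEC4D. The shallow Day 150 library of B1502 was among these 7. The level and the genes were picked with values or earlier results of these samples known. The share of all genes highest in these 7 libraries was not taken, and TSC22D3 and MMP8 were not counted in this way, so the overlap is a description. Treatment of single animals is not given in the labels, and the part of dexamethasone in these values was not tested.

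**Figure D5:**
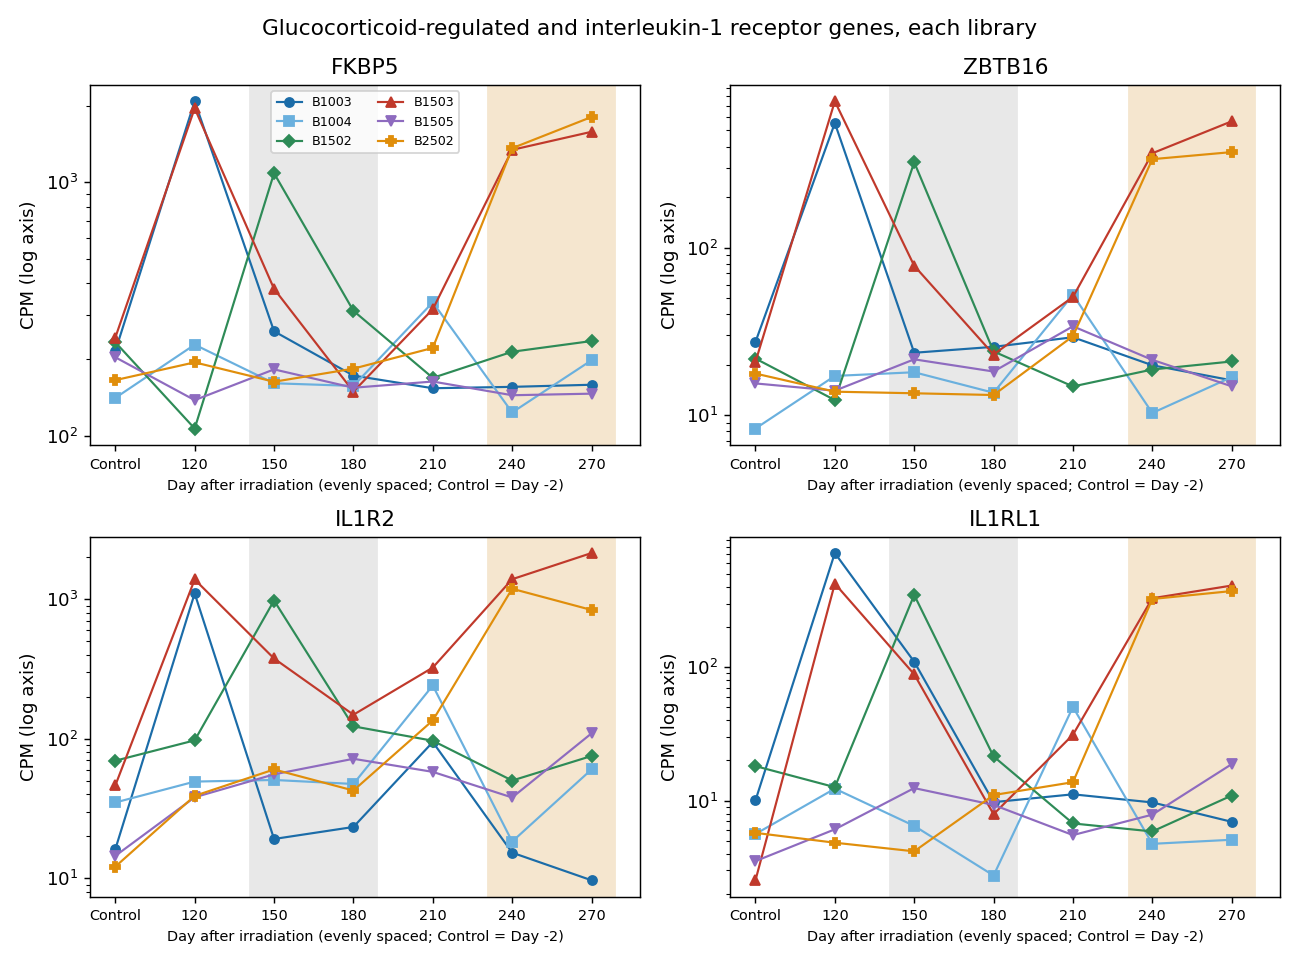
CPM (log axis) of FKBP5, ZBTB16, IL1R2 and IL1RL1 before irradiation and on Days 120 to 270 in the 6 animals (lines: animals; grey band: earlier window; tan band: later window). FKBP5 exceeded 1000 CPM on Day 120 in B1003 and B1503, on Day 150 in B1502, and on Days 240 and 270 in B1503 and B2502.

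Interferon-induced genes were higher in the later window mainly in B2502. The interferon list had 37 of 39 members tested and 0 called. Its median log2 fold change was 0.52, and 5 members were higher at an unadjusted p under 0.05, against 3.24% of all genes tested. The median change was 2.31 in B2502, 0.50 in B1503 and -0.02 to 0.31 in the other 4 animals. Without B2502 the fitted median was 0.18. MX1, a GTPase that blocks viral replication, was at 79.8 and 74.3 CPM in the earlier and 413 and 806 CPM in the later draws of B2502, and at 17.2 to 64.1 CPM in the 20 draws of the other animals. IFIT3, a partner of IFIT1 in binding viral RNA, was at 107.7 and 37.3 CPM and then 410 and 850 CPM in B2502, and at 82.4, 54.7, 205.9 and 143 CPM in B1503. IFIT1 had the smallest p of the list, with 1.22 ± 0.30 (SE, edgeR adjusted p = 0.858) and a higher value in 6 of 6 animals. Its change ran from 0.09 in B1004 to 2.76 in B2502. IFI6, a small mitochondrial protein induced by interferon, had 0.99 ± 0.39 and was higher in 6 of 6. In B2502 IFI6 was at 70.7, 32.5, 408 and 687 CPM.

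The letters GAAA, any 2 bases and GAAA on either strand, the core of the element that interferon-activated factors bind, were in the 250 bases before the start of 10 of 37 interferon list members and of 2.85% of all tested genes. No red cell list member and 1 of 23 B cell list members held them. IFI6 is printed because it was higher in all 6 animals and held the letters 4 times, shown in capitals. The 250 bases before IFIT1, IFIT3 and MX1 held none.

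IFI6 (chr1:197051336-197051585, plus strand): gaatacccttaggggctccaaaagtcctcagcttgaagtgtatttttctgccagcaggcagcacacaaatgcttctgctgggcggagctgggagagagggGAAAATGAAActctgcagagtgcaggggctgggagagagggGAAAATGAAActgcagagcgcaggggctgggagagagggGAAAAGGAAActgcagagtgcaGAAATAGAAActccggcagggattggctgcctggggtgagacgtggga

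Eosinophil genes had the lowest median of the 37 lists. Of 17 members 11 were tested and 0 called, with a median log2 fold change of -0.79. At an unadjusted p under 0.05, 2 members were lower and 1 (GATA1, which red cell precursors also use) was higher. Of all genes tested, 1.81% were lower and 3.24% higher at that level. The median change was -1.78 in B2502, -1.59 in B1503 and -1.33 in B1003, and -0.19 to 0.53 in the others. Without its Day 150 library B1502 had -0.41. The fitted median was -0.46 without B2502 and -0.47 without B1503. RNASE3, the eosinophil cationic protein, was lower in 6 of 6 animals (-1.33 ± 0.42 SE, edgeR adjusted p = 0.898). The RNASE3 difference rested on Day 180, since Days 240 and 270 gave -0.16 and -0.21 against Day 150 and -1.69 and -1.54 against Day 180. Its level was low, with 2.86 CPM on average earlier and 1.31 CPM later. EPX, the eosinophil peroxidase, was at 545 and 131.5 CPM on Days 150 and 180 in B1003 and at 71.8 and 49.1 CPM later, and at 23.9, 45.8, 3.55 and 0.24 CPM in B2502. In B1505 EPX was at 0.93 and 1.28 CPM earlier and at 4.93 and 4.06 CPM later. IL5RA, the receptor chain for interleukin-5, was at 5.95, 8.54, 1.36 and 0.20 CPM in B1503. It was lower in 4 of 6 animals and higher in B1004 (0.95) and B1505 (0.40).

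The 10 genes of the largest late changes from control, a list drawn from earlier results on these samples and so no independent evidence, had 0 called. PMP22, a membrane protein of myelin also made outside nerves, was lower in 6 of 6 animals (log2 fold change -1.14 ± 0.38 SE, edgeR adjusted p = 0.924), at 0.60 CPM on average in the later window. HDAC11, a histone deacetylase, was higher in 5 of 6 animals by 1.17 ± 0.44, with 450 and 655 CPM in the later draws of B2502 against 69.4 and 71.7 CPM earlier. SUCNR1, the succinate receptor, was at 319 and 102.7 CPM in the earlier and 22.5 and 15.2 CPM in the later draws of B1003, whereas the other 5 animals had 3.52 to 32.9 CPM in all 20 draws. In B1003 EPX and SUCNR1 were both highest on Day 150 of the 4 draws. CD22, CSTA, DENND2A and CCDC141 had log2 fold changes from -0.28 to 0.32, smaller than or close to their SE.

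At an unadjusted p under 0.05, 3.24% of all genes tested were higher and 1.81% lower, and some of the other lists lay above these shares. Of 61 oxidative phosphorylation genes 5 were higher and 1 lower at that level. Immediate early genes (32 tested, 0 called) had 5 lower at an unadjusted p under 0.05, FOSB, CXCL8, ATF3, FOS and KLF4, and a median of -0.08. Of 20 platelet genes 3 were higher at that level, and GP1BB, a subunit of the von Willebrand factor receptor, was higher in 6 of 6 animals (0.56 ± 0.13 SE, edgeR adjusted p = 0.848). By single days GP1BB ran from -0.27 for Day 240 against Day 180 to 1.25 for Day 270 against Day 150. Of 34 cell cycle genes 4 were higher at that level, with MCM2, a part of the replicative helicase, at 0.75 ± 0.23. The p53 target list (28 tested, median -0.04) had ZMAT3 lower in 6 of 6 animals (log2 fold change -0.41 ± 0.13). MT2A, a metallothionein on the glucocorticoid list, was higher in 5 of 6 animals (1.24 ± 0.40) at 11.5 CPM or less, and in B1503 the value was -0.23. CCR2, the chemokine receptor of classical monocytes, was lower in 5 of 6 animals (log2 fold change -0.69 ± 0.22). In all 37 lists 0 members were called by edgeR.

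The change was also compared between the 2 males and the 4 females. By edgeR's interaction of window and sex 0 of 13751 genes were called, with 1990 at an unadjusted p under 0.05, and DESeq2 called 10. Among these 10, RETN (resistin, made by neutrophils and monocytes) had log2 differences of 1.27 and 1.62 in the males and of -1.69 to -0.20 in the females. FCER2, the low-affinity IgE receptor of B cells, had 1.41 and 1.63 in the males and -0.91 to -0.05 in the females. PROK2, a chemokine-like peptide of neutrophils, had -2.14 and -1.67 in the males and -0.67 to 0.74 in the females. RETN, FCER2 and PROK2 were chosen from these 10 after their values were seen, so their values are a description. With 2 males, sex cannot be told apart from these 2 animals.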

How the data were processed

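Whole blood RNA of the 6 animals was sequenced after removal of ribosomal RNA with a stranded kit. Per the labels and the methods, the authors trimmed reads with cutadapt 2.10, aligned them with STAR 2.7.6a to the assembly Mmul_10 and counted RefSeq genes in Subread 2.0.1. The deposited counts (21070 genes) are not normalized. The deposited log2 values (16730 genes) were scaled by the authors by the upper quartile and served in 1 alternative. The counting's strand setting is not given in the sources used here.

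Counts were summed per animal and window. The test took the 13751 genes that reached 3 counts in 80% or more of all libraries of the series. It was the quasi-likelihood test of edgeR 4.0.16 under R 4.3.3, after upper quartile scaling and with a term for each animal, followed by Benjamini-Hochberg adjustment. A call needed an adjusted p no larger than 0.05 and a difference of 1.5-fold or more. The pairing comes from the animal ids in the labels. Changes of single animals are differences of log2 CPM (prior count 2). Levels of single libraries are CPM scaled by the upper quartile over the 96 libraries of these animals, not per length, so levels are not compared between genes. Unless marked otherwise ± is the SE. This SE was worked back from the edgeR test, as the absolute log2 fold change over the square root of the F statistic. Alternatives used TMM, DESeq2 1.42.0, limma 3.58.1, other filters, days and libraries, and leaving out animals. The fits were tested on simulated data. Figures were drawn in Matplotlib 3.10.9, sequences were read with pysam, and tables were made with pandas 2.3.3 and NumPy 2.4.6 under Python 3.11.15. The study used Student's test and quantile normalization for GC content, which were not repeated.

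Named genes were the 5 higher and 5 lower in all 6 animals with the smallest p (1 of the lower is not reported here), the member of each list with the smallest p, and the 10 genes of late change. The animals, lists and rules were chosen with earlier results of these data known. Each library is a separate draw of 1 animal, so intervals between animals rest on 6 animals.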

Additional observations from a re-analysis of the deposited data

Results flagged for a closer look

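The gene lists, the named genes and the total counts of each day were looked at. Of these sets 3 (2.54%) held 1 animal farther from the other 5 than Dixon's 95% limit allows. That limit marks about 1 in 20 independent sets by chance. These sets share animals and genes, so the rate cannot be applied to them and no conclusion on chance is drawn. The median change of the interferon list was 2.31 in B2502, against at most 0.50 in the other 5 animals. SUCNR1 had a log2 difference of -3.41 in B1003, and its next lowest was -0.66 in B1004. In B1003 window and library number cannot be told apart. The fitted SUCNR1 change was -0.84, and -0.32 with only libraries numbered 0, which leaves out B1003. FOXP1, a transcription factor of lymphocyte development, had a difference of -0.33 in B1502, and its difference was above 0 in the other 5 animals. The B1502 value leaned on its shallow Day 150 library. FOXP1 was at 199.6 CPM in that library and at 101.8, 103.05 and 96.5 CPM on Days 180, 240 and 270.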

How the results depend on the processing

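The count of called genes was 0 in each alternative run with edgeR on window sums and with limma on the deposited log2 values, and 0 with no fold threshold. DESeq2 called 17 genes, and taking every library as a replicate (2 draws of 1 animal are not independent) called 29, with 9 in both. Leaving the animal block out gave 0 called and 420 genes at an unadjusted p under 0.05. Without each animal in turn 0 genes were called, with 431 to 953 at an unadjusted p under 0.05 and a smallest adjusted p of 0.0568 without B1004. Without the Day 150 library of B1502, chosen after seeing the data, 0 were called. For the interaction with sex DESeq2 called 10 genes and TMM scaling 0. Using single days instead of sums moved some list medians by more than the spread between animals. Day 240 against Day 150 gave 0.71 for cytotoxic lymphocytes, 0.46 for T cell checkpoints, 0.13 for antigen processing class I, 0.47 for cell cycle, 0.13 for heat shock and 0.12 for proteasome. Day 270 against Day 180 gave -0.27 for cytotoxic lymphocytes, 0.13 for TGF-beta, -0.13 for cell cycle, -0.34 for heat shock and -0.18 for proteasome. Day 270 against Day 150 gave 0.78 for platelets and -0.23 for heat shock, and Day 240 against Day 180 gave -0.55 and 0.0766. The cause was not tested. Over all alternatives the red cell median ran from 0.66 to 1.40, the interferon median from 0.18 to 0.92 and the eosinophil median from -1.11 to -0.32, while 32 of 37 list medians changed sign in at least 1 alternative, as did 20 of 77 named genes. HBM ran from 1.18 to 1.86. The shallowest library, that of Day 150 in B1502, held 2840219 counts.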

Other observations

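Day 210, which lay between the windows, was not part of the comparison. On that day FOSB had a median of 66.9 CPM (21.9 to 105.8, n = 6 animals), above its median of 36.2 CPM in the earlier and 25.0 CPM in the later draws. CSF3R, the receptor of the neutrophil growth factor G-CSF, was at 3595 to 5509.5 CPM on Day 210 in the 6 animals, and at 902 to 6891.2 CPM in the 24 draws of both windows. MS4A1 was at 13.9 to 59.5 CPM on Day 210 (median 34.7), and its medians were 56.3 CPM in the earlier and 59.2 CPM in the later draws. IL1R2 on that day was at 57.9 to 325 CPM, and it was lowest in B1505. These values were looked at after the data were seen, and no test was run on them.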
